A study of Homo sapiens with 6 samples.

Results

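The protocadherin genes of A549, a long-established cell line from a human lung adenocarcinoma, were examined in RNA-seq libraries made with and without knockdown of METTL3, the catalytic subunit of the complex that writes m6A on RNA. Rows were taken by symbol, as the clustered genes PCDHA, PCDHB and PCDHG on 5q31 or as PCDH followed by a number, without PCDH11X, PCDH11Y and 6 pseudogenes. This gave 64 of the 57781 rows of the count table, namely 15 alpha, 16 beta, 22 gamma and 11 non-clustered genes. The comparison was between 3 libraries of cells with vector and 3 libraries of cells with a short hairpin RNA against METTL3 (shMETTL3), and it asks how METTL3 loss affects gene expression in these cells. All 6 libraries come from the same line, and the labels say neither whether they were separate cultures nor how many hairpins were used, so the p-values below measure only the spread between these libraries.

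Protocadherins are the largest subgroup of the cadherins, calcium-dependent adhesion proteins of the cell surface. Each alpha and gamma gene has its own promoter and its own large first exon, which encodes the outer part, the membrane span and the start of the tail, and this exon is spliced to constant exons shared by the whole cluster. Beta genes lack such constant exons. In neurons, promoters of the clusters are chosen one by one, with CTCF and cohesin bringing a distant enhancer to the chosen promoter, and the resulting set of surface proteins serves recognition of self. The non-clustered genes lie at scattered loci and act in adhesion, axon growth and, for single members, in epithelia, endothelium or the inner ear.

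On GRCh37 (hg19, the build of the authors' mapping), the 3 clusters span chromosome 5 from 140165721 to 140892542, or 726.8 kb on the plus strand, in the order alpha, beta, gamma. Exonic bases that no other gene listed in the count table shares on either strand make up 43.4% to 78.6% of an alpha gene and 35.6% to 72.5% of a gamma gene, while beta genes share none with a listed gene. A read-through gene model that is not a row of the table overlaps PCDHB14 and PCDHB15. Reads from the constant exons could therefore not be assigned to 1 alpha or gamma gene. PCDHA9, PCDHGA8, PCDHGA12, PCDHGC4 and PCDHGC5 share these exons and had 0 counts in all 6 libraries, so such reads were not added to every row that shares them. Levels per length below are CPM, counts per 1000000 TMM-scaled library counts, divided by the kb of unshared exon.

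METTL3 itself stood at 887, 846 and 808 counts with vector and 364, 399 and 307 with shMETTL3, at 49.9 ± 0.676 CPM against 19.4 ± 0.525 CPM (SD, n = 3), or 38.8% of the vector level. Its log2 fold change was -1.36 (SE 0.0673, edgeR quasi-likelihood test with Benjamini-Hochberg adjustment, adjusted p = 4.57e-16). In an exact permutation test, two-sided, p was 0.1, the smallest value possible for 3 libraries against 3. Library totals ran from 14931426 to 19108928 counts, at which 3 counts equal 0.150 to 0.189 CPM. Summed markers of lung epithelium stood at 9973 to 10636 CPM in vector and at 5155 to 5605 CPM in shMETTL3 libraries, with 5 of 8 tested markers lower and 2 higher. The keratins KRT8 (mean 6329 against 2975 CPM) and KRT18 (2592 against 1020 CPM) made up most of these sums. SFTPB and KRT7 were higher, NAPSA was not called, and NKX2-1 and SFTPC were not tested. Summed neuronal markers stood at 29.5 to 31.4 CPM and at 74.6 to 78.7 CPM, with 4 of 4 tested markers higher and ELAVL4 and STMN2 at 0 in all libraries. Fibroblast markers summed to 6.46 to 9.87 CPM and 14.3 to 14.7 CPM, with 1 of 2 tested markers higher. Endothelial markers summed to 0.00 to 0.184 CPM and 1.45 to 2.02 CPM, over the 4 listed of 5, with CDH5 the 1 tested and VWF at 0 throughout, and leukocyte markers to 0.00 to 0.120 CPM and 0.0998 to 0.567 CPM, with none of 5 tested and CD3E at 0 throughout. The part of these shifts in the protocadherin results was not tested. In bulk RNA, fewer expressing cells and less RNA per cell cannot be told apart.

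Most protocadherins were at or near the floor. Of the 64 genes, 7 had no count in any library, and 39 including these did not pass the filter on low counts, with a highest single count of 14 and a median total of 7 counts over the 6 libraries. The 25 tested genes comprised 9 alpha, 5 beta, 5 gamma and 6 non-clustered genes. Of these, 14 (56.0%) were called at an adjusted p under 0.05, 4 higher and 10 lower in shMETTL3, against 66.6% of all 15125 genes tested, 33.7% higher and 32.9% lower. The split depended on the scaling: with library size alone, without TMM factors, 7 members were higher and 8 lower, and 6750 of all genes were higher and 3509 lower. Called genes were common at this threshold, and less so at low levels: the share was 60.4% of 8680 genes within the members' range of level and 2024 of 4048 genes under an average log2 CPM of 2, where 22 of the 25 members lay. Vector and shMETTL3 libraries did not overlap for 15 of the 25 genes (17 with library size alone), against 69.4% of all genes tested. The median log2 fold change was -0.50 over the members and 0.002 over all genes tested. A total of 5 members passed the filter in 1 group only, which favours a difference: PCDHA2 and PCDHA10 in vector, and PCDHGA2, PCDHGB1 and PCDHGB5 in shMETTL3. The counts, medians and rankings over tested members are descriptions for that reason.

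**Figure D1:**
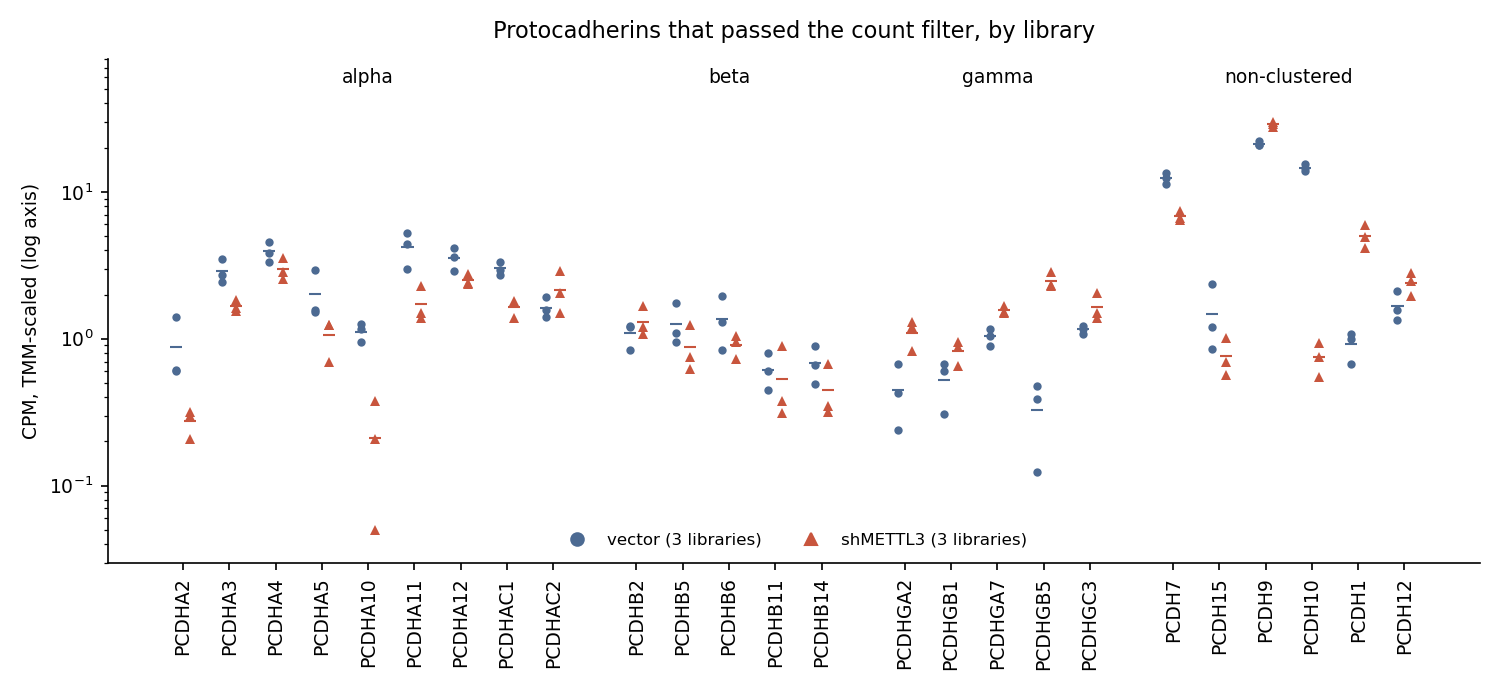
Level of each tested protocadherin in CPM on a log axis, by class. Circles are the 3 vector libraries, triangles the 3 shMETTL3 libraries and short lines the group means. PCDH10 fell from 14.6 to 0.746 CPM, PCDHGB5 rose from 0.330 to 2.49 CPM, and the beta genes overlap between the groups.

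Calls were counted by class. Of 9 tested alpha genes, 7 were lower and 0 higher, with a median log2 fold change of -0.85, where 32.9% of all genes tested were lower and 33.7% higher. None of 5 tested beta genes was called, with a median of -0.50 (-0.19 over 15 genes with no filter, and -0.77 without shMETTL3 replicate 2). Of 5 tested gamma genes, 2 were higher and 0 lower, with a median of 0.62 and all 5 values positive, and of 6 tested non-clustered genes 2 were higher and 3 lower (3 and 2 with library size alone, without vector replicate 1 or without shMETTL3 replicate 2), with a median of -0.22. Without the members that passed the filter in 1 group only, 5 of 7 alpha genes were lower, and the remaining gamma genes, PCDHGA7 and PCDHGC3, were not called. No test over a class was made.

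**Figure D2:**
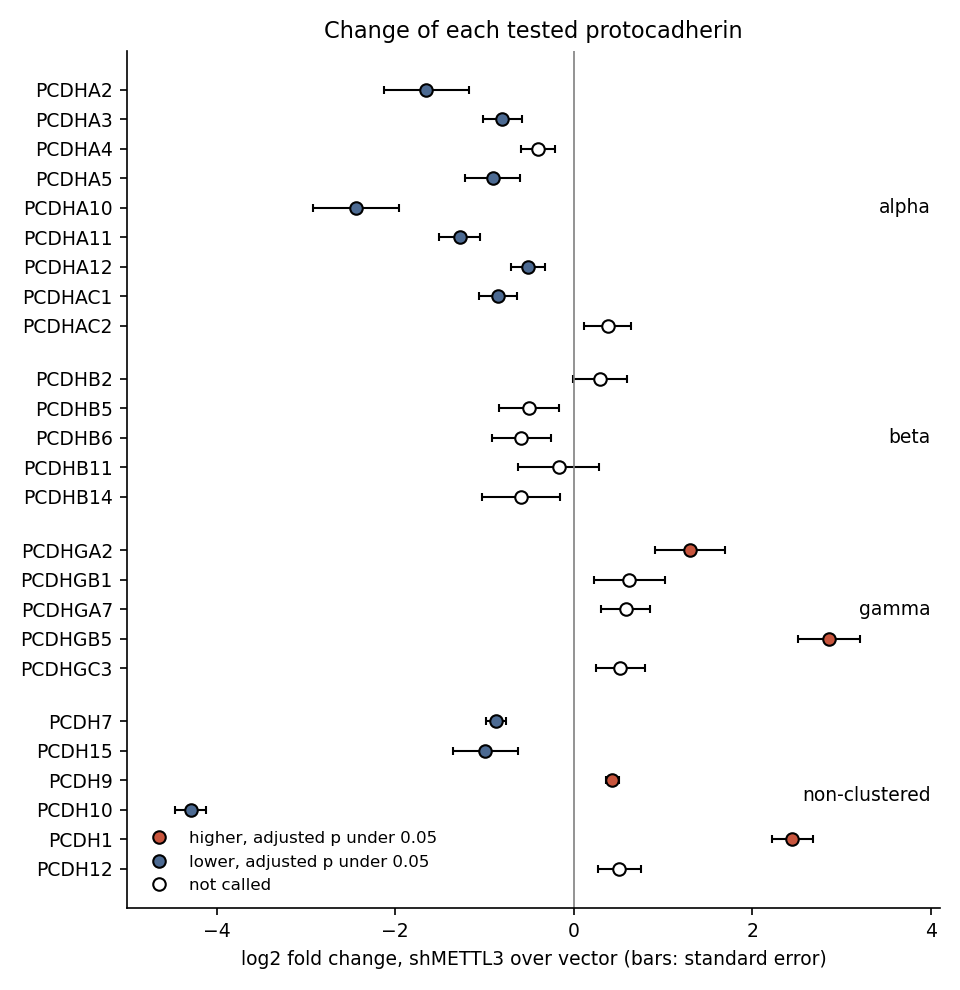
The log2 fold change of each tested protocadherin, shMETTL3 over vector, with its standard error, grouped by class. Filled points passed an adjusted p under 0.05 and open points did not. Of the 9 alpha genes 8 lie left of 0, and the 5 gamma genes lie right of it, from 0.52 to 2.86.

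Sums over all rows of a class do not depend on the filter. The 15 alpha rows together held 447, 392 and 366 counts with vector and 275, 297 and 235 with shMETTL3, and their summed level was 23.6 ± 1.24 CPM against 14.6 ± 0.327 CPM (SD, n = 3), a 1.61-fold decrease. The 22 gamma rows held 95, 86 and 78 counts and 190, 202 and 151 counts, or 5.07 ± 0.264 CPM against 9.81 ± 0.283 CPM (SD, n = 3), a 1.93-fold increase. The alpha and gamma sums thus stood on opposite sides of their vector levels, with no overlap between groups in either. The 16 beta rows summed to 6.99 ± 0.537 CPM and 5.50 ± 0.678 CPM (SD, n = 3), a log2 ratio of -0.34. The 11 non-clustered rows summed to 52.8 ± 2.19 CPM and 44.7 ± 0.988 CPM (SD, n = 3), a log2 ratio of -0.24. With TMM scaling neither of these sums overlapped between groups. With library size alone both did, at 6.20 to 7.21 against 5.09 to 6.44 CPM for beta and 46.7 to 52.5 against 45.8 to 48.8 CPM for non-clustered genes, while the alpha and gamma sums stayed apart. Single genes weighed on the sums in different ways. Without PCDHGB5 the gamma sum went from 4.74 to 7.32 CPM, a smaller rise. Without the C-type genes PCDHAC1 and PCDHAC2 the log2 ratio of the alpha sums was -0.81, a larger fall than the -0.69 of all alpha rows. Without PCDH10 the log2 ratio of the non-clustered sums was 0.20, the opposite direction. With library size alone, without TMM factors, the log2 ratios were -0.52 for alpha, 1.12 for gamma, -0.17 for beta and -0.07 for non-clustered genes, when the median of all tested genes stood at 0.18.

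**Figure D3:**
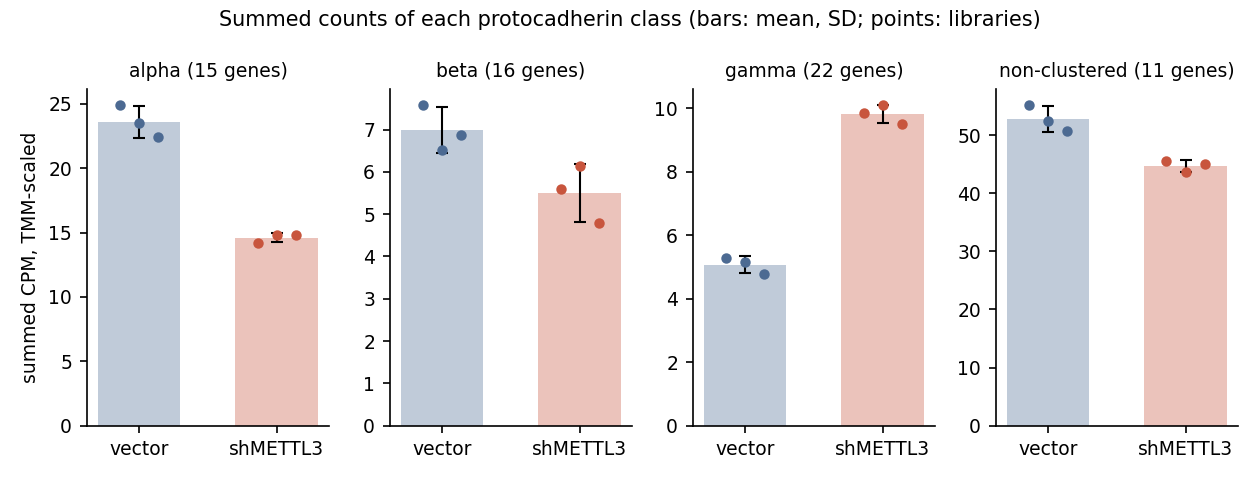
Summed CPM of all rows of each class, tested or not. Bars are means over 3 libraries with SD and points are libraries, each panel on its own axis from 0. The alpha sum fell to 14.6 CPM and the gamma sum rose to 9.81 CPM, while the beta and non-clustered sums fell 1.27-fold and 1.18-fold.

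Along the chromosome, the lower alpha genes and the higher gamma genes lay in the same 726.8 kb, with the beta genes between them. PCDHGB5 and PCDHA10, the tested clustered genes with the largest changes, start 542 kb apart. Each passed the filter only in the group where it was high. The other protein-coding genes within 1 Mb of the clusters were read from the same test. Of 37 such genes, 36 were listed in the count table and 29 tested, of which 10 were higher and 9 lower (14 and 4 with library size alone, 6 and 9 without shMETTL3 replicate 2), with a median log2 fold change of -0.01. Their share of calls, 65.5%, was near the 66.6% of all genes tested. The largest changes among them were in CD14, a monocyte co-receptor for endotoxin (log2 fold change 3.55, SE 0.262), ARAP3, a GTPase-activating protein (1.45, SE 0.200), SPRY4, a feedback inhibitor of MAPK signalling (1.20, SE 0.104), and CYSTM1 (-0.90, SE 0.0535). CD14 had 6, 5 and 16 counts in vector and 125, 117 and 105 in shMETTL3 libraries. It reached the filter's level in all libraries of shMETTL3 only, which favours a difference. TAF7, a subunit of the general transcription factor TFIID whose gene lies between the beta and gamma clusters, differed little (0.15, SE 0.0570, edgeR with Benjamini-Hochberg adjustment, adjusted p = 0.0215). SLC25A2, in the same interval, had 1 count in all.

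**Figure D4:**
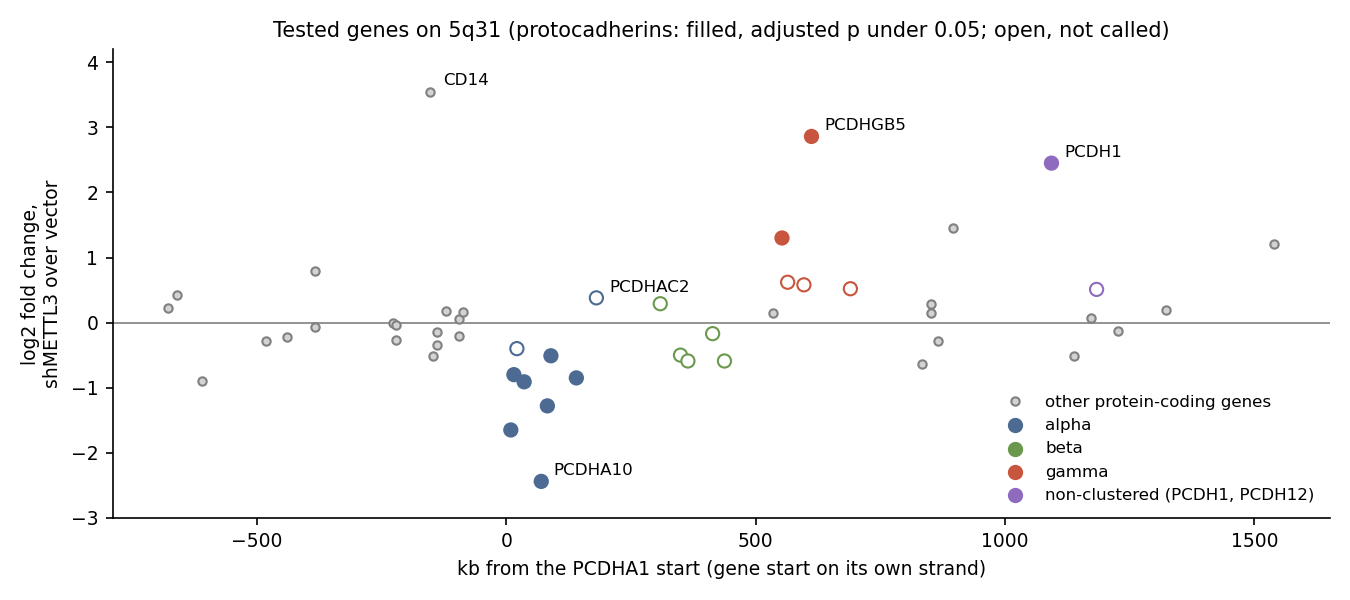
Log2 fold change, shMETTL3 over vector, of tested genes on 5q31 against their distance in kb from the PCDHA1 start. Filled coloured points are protocadherins with an adjusted p under 0.05, open coloured points those not called, and grey points other protein-coding genes, called or not. PCDHA10 at -2.44 and PCDHGB5 at 2.86 mark the extremes of the tested clustered genes, and each passed the filter only in the group where it was high.

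Among the tested alpha genes, PCDHA10 changed most, and it passed the filter in vector only. Its 3 vector libraries held 17, 21 and 19 counts and its shMETTL3 libraries 4, 1 and 6, with a log2 fold change of -2.44 (SE 0.479, edgeR with Benjamini-Hochberg adjustment, adjusted p = 5.18e-05), or 5.44-fold lower. It was called in each fit that left out 1 library, at -1.95 without shMETTL3 replicate 2 and -3.07 without shMETTL3 replicate 3. Its share of all alpha counts was 4.78% ± 0.853 in vector and 1.45% ± 1.11 in shMETTL3 libraries (SD, n = 3). PCDHA11 had more reads, with 79, 87 and 49 counts against 44, 30 and 22, and fell by 1.28 on the log2 scale (SE 0.227, edgeR, adjusted p = 1.74e-05). PCDHA3 had 49, 41 and 57 counts against 31, 31 and 29 (log2 fold change -0.80, SE 0.221, edgeR, adjusted p = 0.00222). Every shMETTL3 library lay below every vector library for these 3 genes. PCDHA10 overlaps AC005609.1 on the opposite strand, whose reads could not be told apart without a stated strand setting. That row had 0 counts in all libraries. Reads matching both genes may not have been counted, so this 0 does not show that there were none.

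PCDHA2 had 11, 10 and 23 counts in vector and 4, 6 and 5 counts in shMETTL3 libraries (log2 fold change -1.65, SE 0.480, edgeR, adjusted p = 0.00334). PCDHA5 had 53, 26 and 25 counts against 24, 25 and 11 (-0.91, SE 0.305, adjusted p = 0.0104). In each of these genes 1 vector library stood high. Without vector replicate 3 PCDHA2 was at -1.14 (adjusted p = 0.0681), and without vector replicate 1 PCDHA5 was at -0.52 (adjusted p = 0.178), or at -0.71 without shMETTL3 replicate 3 (adjusted p = 0.0550), all from edgeR. PCDHA12 had 74, 60 and 47 counts against 46, 47 and 44, the smallest change among the called alpha genes (-0.51, SE 0.193, adjusted p = 0.0216). Its groups did not overlap in TMM-scaled CPM but did with library size alone, and the call was lost with library size alone (-0.34), with DESeq2 (-0.51, adjusted p = 0.0628), without vector replicate 1 (-0.39) and without shMETTL3 replicate 1 (-0.48) or 2 (-0.47). PCDHA4 had 82, 56 and 63 counts against 49, 71 and 45, with overlapping groups and no call (-0.40, adjusted p = 0.0597), although it was called without vector replicate 2 (-0.51) or shMETTL3 replicate 2 (-0.56).

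The C-type genes at the end of the alpha cluster, which most neurons are known to express without random choice, stood apart from each other. PCDHAC1 had 49, 56 and 48 counts in vector and 34, 36 and 22 counts in shMETTL3 libraries, without overlap (log2 fold change -0.85, SE 0.214, edgeR with Benjamini-Hochberg adjustment, adjusted p = 0.000985). PCDHAC2 had 28, 32 and 23 counts against 29, 41 and 46 and was not called (0.38, adjusted p = 0.204). It was the 1 tested alpha gene with a positive value, and its share of all alpha counts was 6.90% ± 1.09 against 14.6% ± 4.57 (SD, n = 3). Of the remaining 6 alpha genes none was tested, and their highest count was 9.

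The gamma cluster held the largest rise among the tested clustered genes, in PCDHGB5, which passed the filter in shMETTL3 only. PCDHGB5 counts were 7, 8 and 2 with vector and 45, 46 and 45 with shMETTL3, with no overlap. Its level was 0.330 ± 0.185 CPM against 2.49 ± 0.302 CPM (SD, n = 3), 7.28-fold higher (log2 fold change 2.86, SE 0.349, edgeR with Benjamini-Hochberg adjustment, adjusted p = 4.19e-08). It made up 6.41% ± 3.47 of all gamma counts in vector and 25.4% ± 3.82 in shMETTL3 libraries (SD, n = 3). On chromosome 5 of GRCh37 it runs from 140777514 to 140892542, plus strand. Of the 100-base windows in its unshared exon, 15.1% also occur elsewhere in the 5q31 region, so some of its reads may have been left out or placed there. PCDHGB4, in which 16.7% of windows are repeated, was not tested and stayed between 0.223 and 0.718 CPM in all libraries.

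PCDHGA2 had 12, 4 and 7 counts in vector and 25, 24 and 13 counts in shMETTL3 libraries, again without overlap (log2 fold change 1.30, SE 0.394, edgeR, adjusted p = 0.00480). The other tested gamma genes lay between 0.52 and 0.62 and were not called. PCDHGA7 had 21, 15 and 17 counts against 32, 30 and 24 (0.58, adjusted p = 0.0676), and PCDHGC3, a C-type gene expressed well beyond the nervous system, had 21, 18 and 20 counts against 29, 41 and 22 (0.52, adjusted p = 0.0987). Groups did not overlap in CPM for either gene, and both were called with library size alone, at 0.75 and 0.69. With at least 10 counts in every library, PCDHGA7 was called as well (0.60, edgeR adjusted p = 0.0392). PCDHGB1 had 12, 10 and 5 counts against 17, 13 and 15, with groups that overlapped in TMM-scaled CPM (0.62, adjusted p = 0.167). The 17 untested gamma genes had at most 13 counts in a library.

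The beta genes showed no call in edgeR, and none had an unadjusted p under 0.05. DESeq2 and limma-voom also called 0 of the 5. PCDHB2 had 15, 20 and 20 counts in vector and 32, 24 and 17 in shMETTL3 libraries (log2 fold change 0.29), and PCDHB5 had 17, 29 and 18 against 12, 25 and 12 (-0.50). PCDHB6 had 35, 14 and 21 counts against 14, 21 and 15 (-0.59, edgeR adjusted p = 0.113) and was called without vector replicate 2 (-0.85, adjusted p = 0.0287) but stood at -0.23 without vector replicate 1 (adjusted p = 0.606). All of these overlapped between groups, except PCDHB2 with library size alone. PCDHB11 had 8, 10 and 13 counts against 6, 18 and 6 (-0.17), and its sign turned with library size alone (0.00) and without vector replicate 3 (0.05) or shMETTL3 replicate 1 (0.12). PCDHB14 had 16, 11 and 8 counts against 13, 7 and 5 (-0.59, adjusted p = 0.227). PCDHB8, with 14, 5 and 13 counts against 3, 2 and 4, fell just short of the filter. It was called without a filter (-1.90, adjusted p = 0.00566) and, at -1.62 to -2.24, in 4 of the 6 fits that left out 1 library, and 27.2% of its 100-base windows occur elsewhere in the 5q31 region.

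Promoter sequences were read from the RefSeq table of GRCh38.p14, 250 bases before to 50 bases after each gene start, which held 56 of the 64 genes. The clustered promoters are known for a conserved element with the letters CGCT at its core, and a search for GNCGCTG was made after the sequences had been seen. On the gene's own strand, GNCGCTG occurred in 6 of 13 alpha, 12 of 14 beta, 18 of 20 gamma and 0 of 9 non-clustered promoters, against 17.3% of 27305 genes in the table. On either strand it occurred in 2 of 9 non-clustered promoters and in 28.9% of all genes. The first match began 40 to 57 bases before the start in the alpha genes, and 40 to 100 bases before it in 10 of the 12 beta and 17 of the 18 gamma genes with a match. The match is a description of the letters and not a measured binding site. Stretches of 35 bases around the match are shown for tested members, to set the alpha genes that were lower, the beta genes that were not called and the gamma genes beside each other, with GNCGCTG in capitals. On the plus strand of GRCh38.p14 they lie at chr5:140794781-140794815 for PCDHA2, chr5:140821542-140821576 for PCDHA5 and chr5:140855841-140855875 for PCDHA10, at chr5:141094544-141094578 for PCDHB2 and chr5:141135179-141135213 for PCDHB5, and at chr5:141338703-141338737 for PCDHGA2, chr5:141350025-141350059 for PCDHGB1, chr5:141382649-141382683 for PCDHGA7, chr5:141397863-141397897 for PCDHGB5 and chr5:141475880-141475914 for PCDHGC3.
PCDHA2: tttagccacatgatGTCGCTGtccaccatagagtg
PCDHA5: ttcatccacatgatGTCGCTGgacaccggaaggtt
PCDHA10: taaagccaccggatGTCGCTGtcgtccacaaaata
PCDHB2: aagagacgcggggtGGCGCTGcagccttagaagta
PCDHB5: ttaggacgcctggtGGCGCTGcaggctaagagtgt
PCDHGA2: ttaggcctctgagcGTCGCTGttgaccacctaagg
PCDHGB1: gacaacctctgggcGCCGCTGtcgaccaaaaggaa
PCDHGA7: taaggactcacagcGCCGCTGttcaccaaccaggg
PCDHGB5: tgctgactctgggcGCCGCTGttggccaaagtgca
PCDHGC3: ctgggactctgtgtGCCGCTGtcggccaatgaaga

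In these stretches the alpha genes carry GTCGCTG, the beta genes GGCGCTG, and the gamma genes GCCGCTG except PCDHGA2 with GTCGCTG. PCDHGA2 was higher, while PCDHA2, PCDHA5 and PCDHA10, which share its letters, were lower. PCDHGA2 passed the filter in shMETTL3 only, and PCDHA2 and PCDHA10 in vector only, which favours these directions. PCDHA5 passed it in both groups. Whether the letters bear on the direction of change was not tested. PCDHA4, PCDHA11, PCDHA12, PCDHAC1, PCDHAC2 and PCDHB14 had no match in the window, and the promoters of PCDHA3, PCDHB6, PCDHB11 and PCDH10 were not analysed here. For the tested clustered genes with the largest rise and the largest fall, the 250 bases before the start are given in full. Each of these genes, PCDHGB5 and PCDHA10, passed the filter only in the group where it was high. The stretches, again with the match in capitals, lie at chr5:141397697-141397946 for PCDHGB5 and chr5:140855647-140855896 for PCDHA10 on the plus strand of GRCh38.p14.
PCDHGB5: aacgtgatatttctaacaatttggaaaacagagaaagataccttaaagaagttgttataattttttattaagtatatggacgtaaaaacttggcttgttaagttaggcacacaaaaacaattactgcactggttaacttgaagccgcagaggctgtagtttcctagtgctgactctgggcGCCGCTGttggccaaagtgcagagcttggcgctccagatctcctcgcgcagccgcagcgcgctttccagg
PCDHA10: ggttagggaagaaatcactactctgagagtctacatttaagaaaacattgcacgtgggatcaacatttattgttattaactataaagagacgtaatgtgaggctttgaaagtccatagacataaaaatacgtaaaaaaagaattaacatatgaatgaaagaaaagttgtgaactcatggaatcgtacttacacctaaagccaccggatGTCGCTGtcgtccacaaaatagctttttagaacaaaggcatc

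Among the tested protocadherins, the largest change was in a non-clustered gene. PCDH10, a delta protocadherin that binds the actin-regulating WAVE complex and is often silenced by promoter methylation in carcinomas, lies on chromosome 4 of GRCh37 from 134070449 to 134129761 on the plus strand. Its counts were 261, 233 and 251 with vector and 18, 11 and 12 with shMETTL3. The level fell from 14.6 ± 0.723 CPM to 0.746 ± 0.192 CPM (SD, n = 3), 19.5-fold lower (log2 fold change -4.29, SE 0.175, edgeR with Benjamini-Hochberg adjustment, adjusted p = 7.28e-18). Its share of the non-clustered counts was 26.4% to 30.3% in the vector and 1.26% to 2.05% in the shMETTL3 libraries. The fold change lay between -4.49 and -4.09 in all 17 alternatives, each of which called it lower.

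PCDH1, an adhesion protein of airway epithelium and an entry receptor of New World hantaviruses, moved the other way. Its position on chromosome 5 of GRCh37 is 141232655 to 141258811, minus strand, downstream of the gamma cluster. It had 18, 18 and 11 counts in vector and 95, 120 and 66 counts in shMETTL3 libraries, or 0.918 ± 0.215 CPM against 5.02 ± 0.918 CPM (SD, n = 3). It was 5.46-fold higher (log2 fold change 2.45, SE 0.230, edgeR with Benjamini-Hochberg adjustment, adjusted p = 3.56e-10), and higher in each of 17 alternatives. PCDH9, a delta protocadherin of the brain, had most counts of all members, with 400, 347 and 339 against 576, 554 and 459. It rose by a small amount with tight replicates (21.3 ± 0.872 against 28.8 ± 1.10 CPM, SD, n = 3, log2 fold change 0.43, SE 0.0737, edgeR adjusted p = 9.33e-06). An exon overlaps PCDH9-AS1 on the opposite strand, so reads of the 2 cannot be told apart there.

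PCDH7, a delta protocadherin known to promote growth of lung cancer cells, had 225, 224 and 185 counts in vector and 125, 134 and 117 in shMETTL3 libraries, without overlap. It fell from 12.4 ± 1.04 to 6.84 ± 0.468 CPM (SD, n = 3, log2 fold change -0.87, SE 0.114, edgeR, adjusted p = 1.78e-07). PCDH15, a component of the tip links of hair cells in the inner ear, had 42, 20 and 14 counts against 11, 14 and 16, with overlapping groups. It was called lower (-0.99, SE 0.363, edgeR, adjusted p = 0.0181), but not without vector replicate 1 (-0.47, adjusted p = 0.313), shMETTL3 replicate 1 (-0.82) or shMETTL3 replicate 2 (-0.94), nor with library size alone (-0.82). PCDH12, a protocadherin of endothelial junctions, had 38, 26 and 22 counts against 54, 39 and 39 and was not called (0.51, adjusted p = 0.0641), but was called without vector replicate 1 (0.71) or shMETTL3 replicate 2 (0.65), with library size alone (0.68) and with at least 10 counts in every library (0.52). Its exons overlap RNF14 on the opposite strand. PCDH17, also a delta protocadherin, had 3, 5 and 6 counts in vector and 0 in each shMETTL3 library and did not pass the filter, but was called lower without it (edgeR adjusted p = 0.00167). The other 4 untested non-clustered genes had at most 5 counts in a library.

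Per length of unshared exon, the order of the genes changed between the groups. In vector cells PCDH10 stood highest at 1.44 ± 0.0710 CPM per kb, followed by PCDHA12 at 1.36 ± 0.241 and PCDHA11 at 1.25 ± 0.332 CPM per kb (SD, n = 3), which did not differ beyond their spread. PCDH7 at 0.963 ± 0.0805, PCDHAC1 at 0.725 ± 0.0762, PCDHA3 at 0.717 ± 0.134 and PCDH9 at 0.691 ± 0.0283 CPM per kb came next, the last 3 again within their spread. In shMETTL3 cells the first 4 were PCDHA12 at 0.966 ± 0.0913, PCDH9 at 0.935 ± 0.0358, PCDHGB5 at 0.917 ± 0.111 and PCDH1 at 0.848 ± 0.155 CPM per kb (SD, n = 3), all within their spread. PCDHGB5 and PCDH1 had been at 0.122 ± 0.0684 and 0.155 ± 0.0362 CPM per kb in vector cells, and PCDH10 was at 0.0732 ± 0.0189 CPM per kb in shMETTL3 cells. These lengths are those of GENCODE release 44 and may differ from the gene models used for counting.

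**Figure D5:**
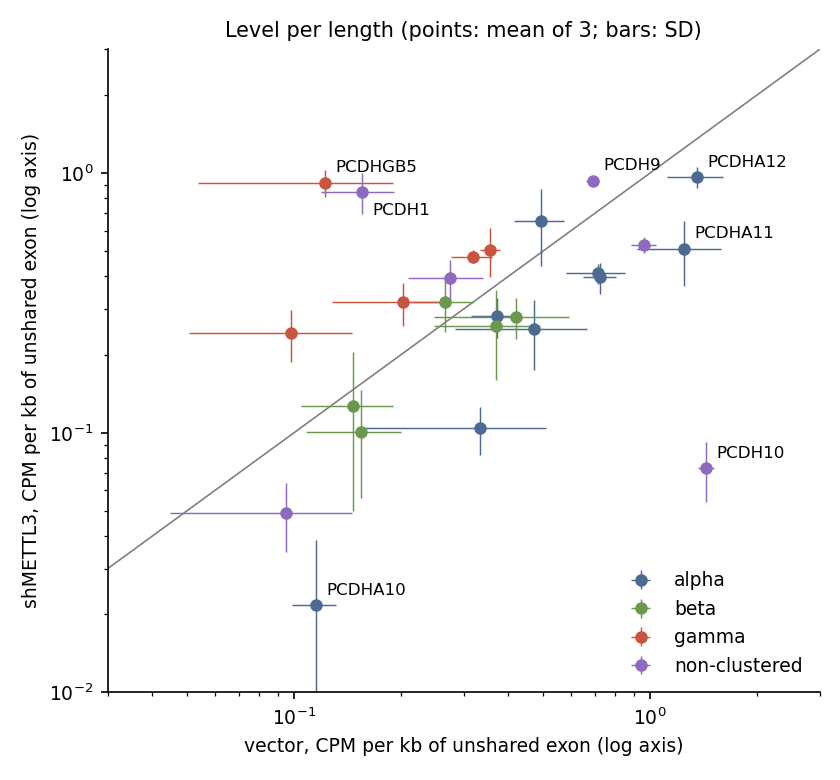
Level per length of the tested protocadherins in CPM per kb of unshared exon, vector against shMETTL3, both axes logarithmic. Points are means of 3 libraries, bars are SD (the lower bar of PCDHA10 runs off the axis) and the line marks equal levels. PCDHGB5 and PCDH1 lie above the line and PCDH10 and PCDHA10 furthest below it.

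Genes that act on or with protocadherins were read from lists in the same test. Of 20 regulators of chromatin at the clusters, 8 were higher and 5 lower (12 and 3 with library size alone, 5 and 4 without vector replicate 2 or without shMETTL3 replicate 1), with a median log2 fold change of 0.11. Their share of calls, 65.0%, was near the 66.6% of all genes tested. The largest changes were in EZH2, the methyltransferase of histone H3K27 (-0.81, SE 0.0790), and in the cohesin subunits SMC1A (0.60, SE 0.0504), RAD21 (-0.58, SE 0.0515) and STAG2 (0.48, SE 0.0678). CTCF, which binds protocadherin promoters and their enhancer, had 1707, 1481 and 1616 counts in vector and 2037, 2060 and 1678 in shMETTL3 libraries, a small rise (0.15, SE 0.0539, edgeR with Benjamini-Hochberg adjustment, adjusted p = 0.0161). SMCHD1, a repressor of the clusters, was not called (-0.02, adjusted p = 0.844). Among 19 tested of 21 partners that bind protocadherin tails or cleave protocadherins, 3 were higher and 7 lower (7 and 4 with library size alone), or 52.6% called against 66.6% of all genes tested, with a median of -0.11. FYN, a Src-family kinase, had the largest change (-1.58, SE 0.0764), followed by the WAVE complex genes CYFIP2 (-0.81, SE 0.0647) and WASF2 (-0.69, SE 0.0566), while ADAM10, a protease that sheds protocadherins, was higher (0.69, SE 0.0602).

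Of 47 other cadherins 27 were tested, 12 higher and 11 lower, with a median log2 fold change of 0.07. Their share of calls was 85.2% against 66.6% of all genes tested. CDH4, CDH5, CDH10, CDH18 and CDHR4 reached the filter's level in all 3 libraries of 1 group only, which favours a difference. The share of calls is a description for that reason. CDH1, the epithelial E-cadherin, had 2880, 2737 and 2846 counts in vector and 2110, 2259 and 1760 in shMETTL3 libraries (-0.58, SE 0.0517). CDH2, the N-cadherin of neural and mesenchymal cells, had 71, 94 and 93 counts against 901, 840 and 721 (3.14, SE 0.101). These groups did not overlap, and CDH2 changed by more than any tested protocadherin except PCDH10. CDH10 went from 41, 38 and 31 counts with vector to 0 in all 3 shMETTL3 libraries, which is at least 13.1-fold lower when 3 counts per library are taken as the floor, and CDH5, the endothelial cadherin, went from 0, 0 and 2 counts to 30, 28 and 30. FAT3, a giant cadherin, was higher (3.37, SE 0.186), and CDH19 was lower (-3.20, SE 0.161).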

How the data were processed

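RNA was sequenced from A549 cells with vector or METTL3 short hairpin RNA, and the titles of the samples gave group and replicate number. Per the paper's methods, the authors mapped reads to hg19 with HISAT2 and counted them per gene with htseq, while the submitters' processing notes list cutadapt 3.0, HISAT2 2.2.1, SAMtools 1.13 and HTSeq 0.13.5. The deposited values are whole-number read counts per gene, not normalized or filtered, and replicates were not pooled. The gene annotation and strand setting are not given in the sources used here, and reads matching more than 1 gene or place may not have been counted.

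From these counts, R 4.3.3 and edgeR 4.0.16 gave TMM-scaled CPM (all CPM here), filterByExpr (at least 0.559 CPM in 3 libraries), and the quasi-likelihood test on the group, two-sided, with Benjamini-Hochberg adjustment over 15125 genes and a threshold of 0.05 without a minimum fold change. METTL3 was also tested by an exact permutation test of log2(CPM + 0.1). Folds come from the fit. Alternatives were RLE and upper-quartile scaling, library size alone, omitting the filter, a minimum of 10 counts in each library, limma-voom (limma 3.58.1), DESeq2 1.42.0, a replicate block, each library left out, adjusted p under 0.01 and an absolute log2 fold change of at least 1. A minimum average of 10 counts was added after the data were seen. The paper names DESeq2 for its own test. All genes that passed the filter are named, and of each related list the 4 called genes with the largest changes, plus CTCF, SMCHD1, CDH1, CDH2, TAF7 and SLC25A2. The members and lists were chosen with earlier results of these data known. Floors of 3 counts cover counting error only. Within a group, library pairs differed by more than sampling noise (chi-square per degree of freedom 2.64 to 6.90). Exons and positions came from GENCODE release 44 lifted to GRCh37, and promoters from RefSeq. The steps were tested on simulated counts, in which few genes changed, all with a mean count of at least 10. That test does not cover members with lower counts or a setting where most genes change.

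Same-numbered vector and shMETTL3 libraries were not treated as pairs.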

Additional observations from a re-analysis of the deposited data

How the results depend on the processing

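Of the 14 protocadherins called, all 14 kept call and direction under RLE and upper-quartile scaling, with no filter, with limma-voom and with the replicate block. A minimum absolute log2 fold change of 1, which the smaller changes cannot meet by construction, left 7 of them, with 3 of the 7 alpha and 2 of the 5 non-clustered genes, 0 of 13 chromatin regulators, 1 of 10 partners, 13 of 23 other cadherins, 3 of 19 neighbours and 2668 of 10067 genes in all. An adjusted p under 0.01 left 8 of 13 chromatin regulators, 11 of the 14 protocadherins and 8666 of 10067 genes in all. Called beta genes numbered 1 without a filter and 0 to 2 when 1 library was left out. Called gamma genes numbered 4 with library size alone and 1 with at least 10 counts in every library, where 2 were tested. The gamma median log2 fold change of 0.62 was 0.79 with library size alone, 0.89 with no filter and 0.57 with at least 10 counts in every library, and 0.56 to 0.78 when 1 library was left out. The beta median of -0.50 was -0.19 with no filter and -0.77 to -0.35 when 1 library was left out. The non-clustered median of -0.22 was -0.94 with no filter and -0.28 to 0.00 when 1 library was left out. With library size alone the log2 ratios of the sums were -0.52 for alpha, 1.12 for gamma and -0.07 for non-clustered genes. PCDHB11, at -0.17, changed sign with library size alone (0.00), without vector replicate 3 (0.05) and without shMETTL3 replicate 1 (0.12), within -0.82 to 0.12 when 1 library was left out. Beyond the settings' own construction, the cause was not tested. With the replicate block, 14 protocadherins were called and no call changed, with correlations of same-numbered libraries of 0.052, -0.007 and 0.033, and not every library correlated best with its own number. The 39 genes that did not pass the filter had at most 14 counts in a library, and low depth and low expression cannot be told apart there.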
